A study of Oryzias latipes with 2 samples.

Results

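Dermal fibroblasts of adult medaka were described here from single-cell transcriptomes of skin and scales. Cells were chosen by their own transcript counts, as counts of unique molecular identifiers (UMIs), each standing for 1 captured transcript molecule. A fibroblast had at least 500 UMIs and 300 genes, at least 4 UMIs of dcn, lum and col1a2 together, and at least 1 of these from dcn or lum. It also had at most 1 UMI each of CRABP1, epcam, scarb1 and KIRREL3 and no UMI of CD3D, genes that mark other skin cells in these data. The rule found 188 of 5203 cells that passed the UMI and gene limits, out of 5316 barcodes in all. Of these, 151 of 4613 came from run 1 (3.27%, exact binomial 95% interval 2.78 to 3.83%) and 37 of 590 from run 2 (6.27%, 4.45 to 8.54%).

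All samples form 1 group: skin and scale cells of wild-type male and female adults of HdrR, a medaka strain described as having the Southern phenotype, with no treatment. The tissue was digested with TrypLE Express, an enzyme mix that frees cells, for 1 h at 37 °C, and cells were marked with the nuclear dye Draq5 and sorted. The series' design text says that pigment cells were enriched on GFP and mCherry signals, so shares of fibroblasts are shares of sorted cells and not of skin. The sources used here do not give what drives those signals, the gates or the number of fish. The 2 libraries, called run 1 and run 2, carry the same labels and nothing says that they came from separate animals. No barcode was shared between them. The cells that passed the limits but were not fibroblasts, called the other cells, were not alike in the 2 runs. Scarb1 was seen in 50.8% of them in run 1 and 3.62% in run 2, and KIRREL3 in 1.10% and 43.2%. There is no condition to compare, and because the cells were chosen on the same counts, every comparison with other cells is a description with no test.

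Fibroblasts are the connective tissue cells of the dermis, the layer in which fish scales sit. They secrete collagen, bind its fibrils with small leucine-rich proteoglycans such as decorin (dcn) and lumican (lum), and remodel the matrix with proteases and their inhibitors. Pdgfra, a receptor for platelet-derived growth factor, and Prrx1, a homeobox factor of mesenchyme, are widely used to recognise them in vertebrates.

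The fibroblasts held 591725 UMIs in run 1, with a median of 3323 per cell (range 630 to 21155), and 315679 in run 2, with a median of 5769 (range 675 to 65592). The other cells of the same runs had medians of 4161.5 and 10401 UMIs. The deepest fibroblast of run 2 alone held 20.8% of that run's fibroblast UMIs, against 3.58% for the deepest of run 1. Mitochondrial transcripts made up a median of 1.38% and 0.866% of UMIs in the fibroblasts and 2.89% and 1.93% in the other cells. At the edge of the rule, 12 cells of run 1 and 0 of run 2 had a sum of 3 UMIs for dcn, lum and col1a2, just outside, and 13 and 2 had a sum of 4, just inside. The median sum was 13 in run 1 and 20 in run 2. In all, 283 and 58 cells met the matrix part of the rule, and 132 and 21 of them were set aside by the other genes, most often CRABP1, with 87 and 15 cells.

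Levels are given as CPM, counts of a gene scaled to parts of 1e6 UMIs summed over a class of cells in 1 run, with exact Poisson 95% intervals that cover counting error only. The markers that chose the cells were at 3253 CPM (3110 to 3402) for dcn, 840 CPM (768 to 917) for lum and 8076 CPM (7849 to 8309) for col1a2 in run 1. Run 2 gave 1996 CPM (1843 to 2158), 583 CPM (502 to 673) and 2224 CPM (2062 to 2394). The col1a2 level of run 1 rests on 1 cell, which held 52.9% of its UMIs, and was 3943 CPM without that cell. The markers outside the rule were also higher than in the other cells of both runs. Prrx1b stood at 377 and 405 CPM in runs 1 and 2, against 17.5 and 19.8 CPM in the other cells. Pdgfra stood at 157 and 82.4 CPM, against 5.004 and 3.02 CPM.

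Counted in cells thinned to 2000 UMIs, prrx1b was seen in 56 of 110 fibroblasts of run 1 (50.9%, 41.2 to 60.6%) and in 20 of 35 of run 2 (57.1%, 39.4 to 73.7%). Cells with at least 2 UMIs of epcam, an epithelial adhesion gene, served as a keratinocyte reference that should lack the gene, and 9 of 861 (1.05%) and 2 of 165 (1.21%) of them showed it. Pdgfra was seen in 25.5% and 22.9% of fibroblasts and in 0.581% and 0% of the keratinocyte reference, where 0 of 165 cells allows up to 2.21%. Thinning left out 41 and 2 fibroblasts that were shallower. Without thinning, prrx1b was seen in 55.6% and 73.0% of fibroblasts and pdgfra in 31.8% and 45.9%. Of the 5 markers of the labelled cell type, dcn, lum and col1a2 belong to the rule, so only prrx1b and pdgfra bear on the label. Neither was limited to the fibroblasts. Cells chosen by CRABP1, a reference described below, held prrx1b at 203 and 171 CPM and pdgfra at 38.7 and 34.1 CPM. That reference can hold cells that met the matrix part of the rule. The fibroblasts also held keratin transcripts, described below.

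Among 4212 genes with a UMI in at least 10% of the fibroblasts or of the other cells in both runs, 158 (3.75%) were at least 4-fold higher in the fibroblasts in both runs, after 10 CPM was added to each level. In the other direction, 210 genes (4.99%) were at least 4-fold lower in both runs. The median log2 ratio over all 4212 genes was -0.07 in run 1 and -0.13 in run 2. These shares are the background for the gene lists below. Adding 10 CPM understates the ratio of low genes. Against the mean of 4 reference classes in place of all other cells, 91 genes were higher. The class chosen by scarb1 had 1887 cells in run 1 but 7 in run 2, where 1 cell held 31.1% of the class's UMIs. KIRREL3 was at 10.1 CPM in that class in run 1 and at 2840 CPM in run 2. No class was chosen by KIRREL3.

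**Figure D1:**
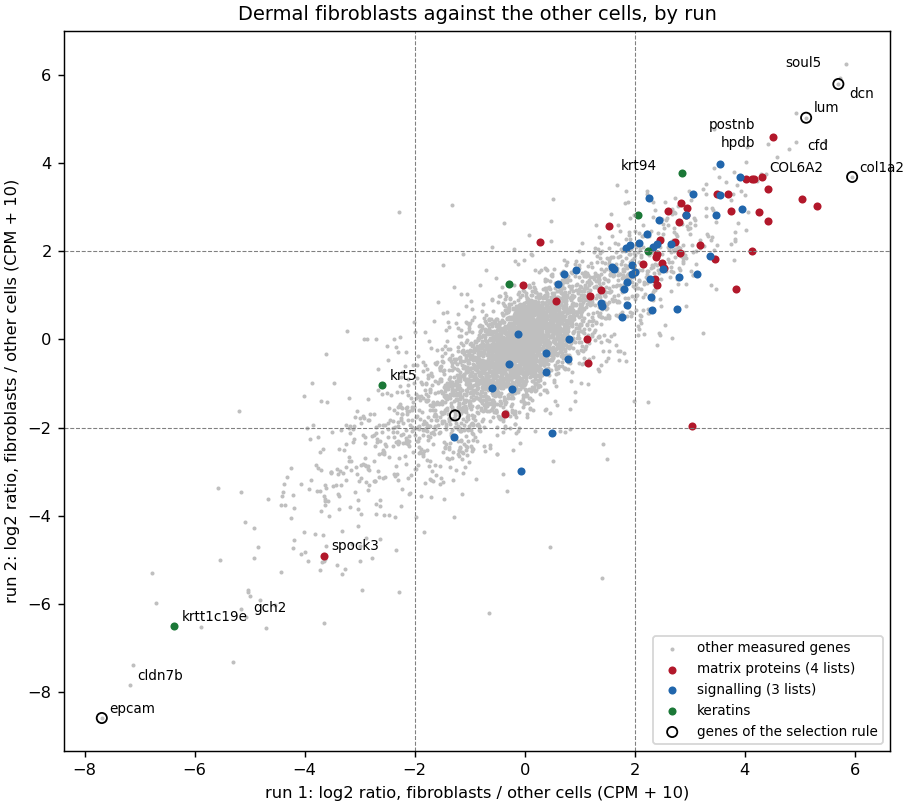
Each point is 1 of the 4212 measured genes, placed by its log2 ratio of CPM plus 10 between the fibroblasts and the other cells in run 1 (horizontal) and run 2 (vertical). Colours mark gene lists, open circles the measured genes of the selection rule, and dashed lines 4-fold; soul5 and postnb lie at the upper right near dcn and lum, and cldn7b and krtt1c19e at the lower left near epcam.

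Collagen genes were higher as a group. Of 13 measured collagens, 8 were at least 4-fold higher in both runs and none was at least 4-fold lower; leaving out col1a2, a gene of the rule, it was 7 of 12. The list's median log2 ratio was 3.19 in run 1 and 2.90 in run 2, beside -0.07 and -0.13 over all genes. Of the chains of type VI collagen, COL6A1, COL6A2 and COL6A3, which form beaded microfibrils around cells, were among the 8. COL6A2 was at 684 CPM (619 to 755) in run 1 and 348 CPM (286 to 420) in run 2, against 25.1 and 17.99 CPM in the other cells. COL6A3 was at 406 and 260 CPM, against 15.5 and 11.8 CPM, and COL6A1 at 426 and 152 CPM, against 22.3 and 11.6 CPM. COL6A6, at 67.6 and 31.7 CPM against 3.38 and 3.48 CPM, did not pass 4-fold in run 2 once 10 CPM was added. Among fibril-forming chains, COL5A1 was at 470 and 215 CPM, against 42.4 and 41.0 CPM. The type I genes col1a1a and col1a1b were at 796 and 1141 CPM in run 1, but 1 cell held 51.4% and 48.3% of these UMIs. Without it they were at 401 and 612 CPM, and in run 2 they were at 219 and 241 CPM, still above the 14.97 and 20.9 CPM of the other cells there. Col4a1, a chain of basement membrane collagen, did not share the pattern, at 235 and 133 CPM against 302 and 452 CPM in the other cells.

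The 4 measured small proteoglycans were at least 4-fold higher in both runs, of which dcn and lum belong to the rule. PRELP was at 250 and 181 CPM, against 12.9 and 9.37 CPM, and PODN, or podocan, at 67.6 and 38.0 CPM, against 1.67 and 0.453 CPM. Of 20 measured matrix glycoproteins, 11 were higher and 1 was lower. Both periostin genes, which code for a collagen-associated adhesion protein, were among them. Postn was at 1436 CPM (1342 to 1536) in run 1 and 748 CPM (655 to 849) in run 2, against 57.6 and 60.8 CPM. Postnb was at 696 and 589 CPM, against 20.7 and 14.7 CPM, with 49.5% of its run 2 UMIs in 1 cell and 302 CPM there without it. Sparc, a collagen-binding protein, was at 1920 and 957 CPM, against 79.4 and 141 CPM. The thrombospondin THBS2 was at 311 and 269 CPM, against 7.73 and 12.4 CPM, and smoc1, a SPARC-related gene, at 269 and 228 CPM, against 5.98 and 9.07 CPM. The one lower member was spock3, a testican proteoglycan, at 6.76 and 6.34 CPM against 201 and 481 CPM.

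Other matrix lists held fewer genes past 4-fold. Of 9 measured elastic fibre genes, 2 were higher, mfap5 and MFAP2, which code for microfibril-associated proteins. Mfap5 was at 79.4 and 98.2 CPM, against 2.44 and 2.57 CPM. In collagen biosynthesis, 2 of 19 were higher: loxl3b, a lysyl oxidase that cross-links collagen, and creb3l1, a transcription factor of secretory cells. Ppib, a prolyl isomerase of the same list, was at 1780 and 1178 CPM, against 589 and 549 CPM, under 4-fold in both runs. Of 16 matrix breakdown genes, 5 were higher. They were the protease genes mmp2, mmp16 and adamts1, the metalloprotease inhibitor timp3 and the serpin gene serpinf1. In run 2, 1 cell held 66.0% of the adamts1 UMIs, and without it the gene was at 54.95 CPM, against 12.55 CPM, under 4-fold. MFAP2, loxl3b, creb3l1 and mmp16 were also under 4-fold in run 2 without the 1 cell with the largest share of the gene's UMIs. Serpinf1, which codes for pigment epithelium-derived factor, was at 588 and 291 CPM, against 21.9 and 15.1 CPM. Of 7 measured large proteoglycan and hyaluronan genes, 0 were higher and 1, the syndecan SDC3, was lower. SDC3 stood at 72.7 CPM in run 1 and 82.4 CPM in run 2, and at 451 and 416 CPM in the other cells. The list summed to 951 and 1014 CPM in the fibroblasts, against 1114 and 1014 CPM in the other cells. With genes in at least 2% of cells, 2 of 15 were higher and 1 lower, beside 172 and 250 of all 10300 genes.

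**Figure D2:**
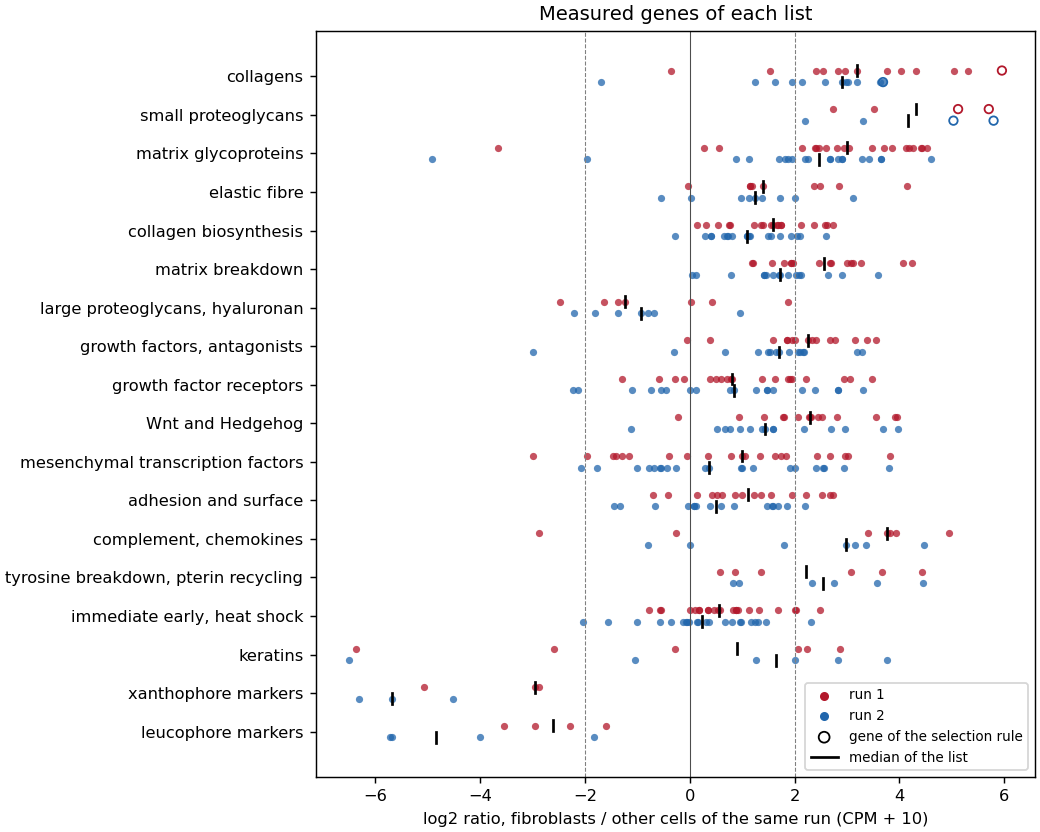
Each point is a measured gene of the list on its row, placed by its log2 ratio of CPM plus 10 between the fibroblasts and the other cells, with run 1 in red, run 2 in blue and black bars for the median of each list. Xanthophore and leucophore markers lie far to the left, and the small proteoglycans include dcn and lum, which belong to the rule.

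Signalling genes followed a mixed pattern. Of 15 measured growth factors and antagonists, 5 were higher in both runs: ccn2a, igfbp5b, nog2, bmp4 and vegfab. Ccn2a, a matricellular growth factor, was at 360 and 162 CPM, against 21.5 and 7.71 CPM, with 34.7% and 37.3% of its UMIs in 1 cell of each run and 239 and 103 CPM without those cells. All but ccn2a of these 5 were under 4-fold in a run without the 1 cell that held most of the gene's UMIs. In run 2, 1 cell held 71.4% of the igfbp5b UMIs, and without it the gene was at 72.0 CPM, against 12.9 CPM, under 4-fold. For nog2, 1 cell held 63.6%, and without it the gene was at 25.9 CPM, against 7.71 CPM, also under 4-fold. Bmp4 was at 118 and 98.2 CPM, against 14.1 and 14.2 CPM. Without the krt5-led cluster of fibroblasts described below, 2 of 13 in this list were higher, beside 207 of all 4109 genes. Of 15 Wnt and Hedgehog genes, 5 were higher, 3 of them secreted modulators of Wnt signalling. These were sfrp2, at 262 and 165 CPM against 8.14 and 3.63 CPM, dkk3b, at 221 and 291 CPM against 9.76 and 9.22 CPM, and sfrp1a, at 341 and 209 CPM against 12.8 and 18.1 CPM. Gas1a, a Hedgehog co-receptor, and gli2b, a Hedgehog transcription factor, were the others.

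Of 19 growth factor receptors, 4 were higher: pdgfra, lpar1, AXL and tgfbr3. Lpar1, a receptor for lysophosphatidic acid, was at 225 and 301 CPM, against 18.3 and 21.6 CPM. Egfra, the epidermal growth factor receptor, was at 213 and 168 CPM, against 261 and 250 CPM. Of 21 mesenchymal transcription factors, 5 were higher: prrx1b, twist1b, osr2, nfixb and 1 of the features named EBF1. Twist1b was at 77.7 and 91.9 CPM, against 3.74 and 3.17 CPM, and osr2 at 260 and 124 CPM, against 23.5 and 13.0 CPM. The adhesion and surface list had 1 of 16 higher, cdh2, which codes for N-cadherin, at 110 and 76.0 CPM against 8.14 and 8.77 CPM, though under 4-fold in run 2 without 1 cell.

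Genes of complement and chemokines were higher too. Of 7 measured complement and chemokine genes, 4 were higher: cfd, cxcl12a, c6 and clu. Cfd, complement factor D, was at 3316 CPM (3171 to 3466) in run 1 and 2154 CPM (1995 to 2322) in run 2, against 98.3 and 87.5 CPM. Cxcl12a, a chemokine, was at 517 and 314 CPM, against 24.6 and 21.3 CPM. Ccl25b, another chemokine, was at 14351 CPM in run 1 and 3142 CPM in run 2, against 1012 and 897 CPM, so that it passed 4-fold in run 1 only. It was seen in 71.8% and 60.0% of thinned fibroblasts and in 74.1% and 80.6% of the keratinocyte reference, so its share of cells was at or below that of the reference. The gene with the largest ratio among those outside the rule that carry a symbol was soul5, named for the SOUL family of haem-binding proteins. It was at 5727 CPM (5536 to 5924) in run 1 and 3478 CPM (3276 to 3690) in run 2, against 98.0 and 47.0 CPM. In thinned cells it was seen in 77.3% and 74.3% of fibroblasts and in 2.79% and 1.82% of the keratinocyte reference.

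Genes of tyrosine breakdown were also higher, in a list that also holds genes of pterin cofactor recycling and was chosen after these values were seen. Of 6 measured, 3 passed 4-fold in both runs: tat, hpdb and hgd, which act in sequence from tyrosine through hydroxyphenylpyruvate to homogentisate. Hpdb was at 600 CPM (539 to 666) in run 1 and 646 CPM (561 to 741) in run 2, against 18.4 and 20.3 CPM. Hgd was at 438 and 462 CPM, against 25.2 and 29.8 CPM, and tat at 89.6 and 69.7 CPM, against 1.83 and 1.81 CPM. These genes were uneven among the clusters of fibroblasts described below. In cluster 1, highest in dcn and lum, hpdb, hgd and tat were at 150, 181 and 0 CPM, the lowest of any cluster. The krt5-led cluster had 809, 586 and 103 CPM. Without the krt5-led cluster, hpdb was still at 498 and 392 CPM in runs 1 and 2. Among retinoid and lipid carriers, 2 of 8 were higher: cyp26b1, which breaks down retinoic acid, and crabp2b, which binds it. Of 22 immediate early and heat shock genes, socs3a alone was higher in both runs, at 4801 and 3466 CPM against 845 and 692 CPM.

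Several further genes of no list were among the 25 with the largest ratios. Aebp1a, related to a collagen-binding carboxypeptidase-like protein, was at 441 and 244 CPM, against 8.87 and 4.38 CPM. PTX3, a secreted pentraxin of innate immunity, was at 362 and 158 CPM, against 7.77 and 2.42 CPM. Myoc, which codes for myocilin, was at 277 and 447 CPM, against 16.4 and 6.803 CPM, with 46.8% of its run 2 UMIs in 1 cell. SCARA5, a scavenger receptor, was at 203 and 231 CPM, against 9.60 and 6.35 CPM, with 41.1% of its run 2 UMIs in 1 cell. Without those cells myoc was at 251.0 CPM and SCARA5 at 144 CPM in run 2, both still over 4-fold. Slit3, a secreted guidance protein, was at 357 and 295 CPM, against 16.6 and 21.0 CPM.

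Among the genes with the lowest ratios were genes of epithelial junctions, a keratin and a gene of pigment synthesis. The rule sets aside cells with more than 1 UMI of epcam, so low levels of genes of epcam cells are in part built into the selection. Cldn7b, a tight junction claudin, was at 18.6 and 3.17 CPM, against 4111 and 3023 CPM. Krtt1c19e, a type I keratin, was at 11.8 and 19.0 CPM, against 1793 and 2625 CPM. The tight junction scaffold gene tjp3 was at 3.38 CPM in run 1, against 392 CPM, and had no UMI in run 2, where 3 counts as a floor make it at least 31.7-fold lower. Gch2, a GTP cyclohydrolase of pteridine pigment synthesis, was at 21.97 and 6.34 CPM, against 1066 and 1279 CPM. Gad1b, a glutamate decarboxylase, had no UMI in either run and was at least 40.5-fold and 39.4-fold lower.

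Markers of other cell types were checked beside these results. Of the measured xanthophore markers, 3 of 3 were at least 4-fold lower, and of the leucophore markers 3 of 4. Pax7a is on both lists and counts in both. The rule sets aside cells with more than 1 UMI of scarb1 or KIRREL3, so low pigment cell markers are in part built into the selection. Erythrocyte markers had no UMI in the fibroblasts, and neither of the 2 measured endothelial markers passed 4-fold. Summed endothelial levels were 206 and 85.5 CPM, against 84.95 and 75.9 CPM in the other cells. Of the 17 endothelial genes, 9 and 12 were at 0 in the fibroblasts. Without the krt5-led cluster, 1 of the 2 measured endothelial markers was at least 4-fold higher in both runs. Tendon markers summed to 157 and 95.03 CPM, against 5.13 and 10.1 CPM, but 0 of these 8 genes were in enough cells to be measured. Of the mural markers, of smooth muscle and pericytes, 1 of 3 measured was higher, rgs5a, at 145 and 57.0 CPM against 7.89 and 6.65 CPM. In run 2, 1 cell held 50% of the rgs5a UMIs, and without it the gene was at 29.1 CPM, under 4-fold. Macrophage markers were summed to 1381 and 782 CPM, against 2067 and 1995 CPM in the other cells. Adipocyte markers summed to 3567 and 2217 CPM, against 143 and 145 CPM, and 1 of 2 measured was higher, cfd, described above among the complement genes. Without cfd they summed to 252 and 63.4 CPM, against 44.6 and 57.4 CPM. Of the scale osteoblast markers 0 of 3 measured were higher. They summed to 4517 CPM in run 1, against 466 CPM, and to 399 CPM in run 2, against 419 CPM. Nearly all COL10A1 UMIs of the fibroblasts of run 1 lay in 1 cell described below. Without COL10A1 on either side, the sums were 559 and 399 CPM, against 380 and 285 CPM in the other cells. In the keratinocyte reference they were 631 and 425 CPM.

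Keratins stood apart from the other epithelial markers, whose low levels are in part built into the epcam limit of the rule. Of 6 measured keratins, in a list chosen after the values were seen, krt94, krt8 and krt18a.1 were at least 4-fold higher in the fibroblasts in both runs, krtt1c19e was lower and krt5 was not past 4-fold in both runs. Without the 1 cell with the largest share of the gene's UMIs, krt8 in run 1 and krt18a.1 in run 2 were under 4-fold, while krt94 stayed over it. In cells thinned to 2000 UMIs, 1 of 6 keratins was higher, beside 153 of all 1900 genes. With means of per-cell CPM it was also 1 of 6, beside 181 of all 4212 genes. Krt94 was at 4264 CPM (4099 to 4434) in run 1 and 10656 CPM (10299 to 11023) in run 2. In the other cells it was at 577 and 772 CPM, and in the keratinocyte reference at 274 and 418 CPM. In thinned cells it was seen in 107 of 110 and 34 of 35 fibroblasts, and in 14.2% and 14.5% of the keratinocyte reference. Krt8 was at 4252 and 2892 CPM in the fibroblasts and at 123 and 86.8 CPM in the keratinocyte reference. Krt5, a keratin of the basal epidermis, was at 1979 and 6016 CPM in the fibroblasts but at 29141 and 25864 CPM in the keratinocyte reference. Thus the keratins that were high in the fibroblasts were low in the cells chosen by epcam.

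Cells with at least 2 UMIs of CRABP1, a retinoic acid-binding protein gene, had the highest dcn, soul5 and krt94 of the 4 reference classes in both runs. They numbered 137 in run 1 and 24 in run 2. The rule sets cells aside at the same CRABP1 limit, among them 87 and 15 that met its matrix part. Such cells can fall in this reference, so its dcn level is not independent of the rule. How far they set its soul5, hgd, prrx1b and pdgfra levels was not tested. The cells of the CRABP1 reference held dcn at 656 and 370 CPM, soul5 at 1059 and 438 CPM, and krt94 at 7838 and 8488 CPM. Their hgd level, 349 and 441 CPM, was close to the 438 and 462 CPM of the fibroblasts, while pdgfra was at 38.7 and 34.1 CPM, against 157 and 82.4 CPM. Prrx1b was at 203 and 171 CPM in this reference, against 377 and 405 CPM in the fibroblasts. Measured against the mean of the 4 reference classes, 0 of 6 keratins were at least 4-fold higher in both runs. Of 13 collagens, 7 were, among them col1a2, a gene of the rule. Over all genes measured in this way it was 91 of 4217.

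**Figure D3:**
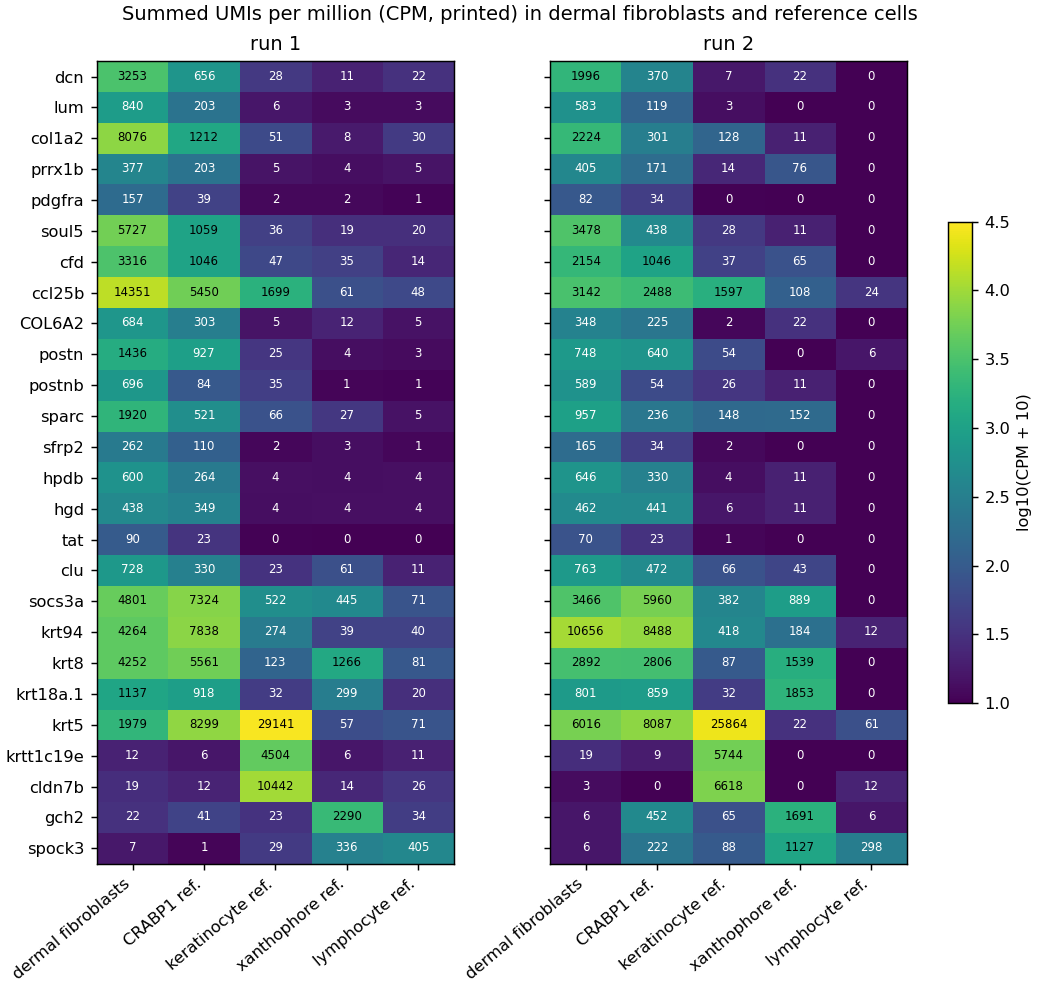
Colour shows log10 of CPM plus 10 and the printed numbers show CPM, for 26 genes in the fibroblasts and in 4 reference classes of each run. The xanthophore reference of run 2 holds 7 cells. The matrix genes and hpdb are high in the first column and lower in the CRABP1 reference, while krt94, krt8 and socs3a are high in both and krt5 is highest in the keratinocyte reference.

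The fibroblasts differed among themselves. Over cells, dcn ranged from 0 to 23280 CPM in run 1, with a median of 2501, and from 168 to 16180 CPM in run 2, with a median of 1751. Lum had no UMI in 69 of 151 fibroblasts of run 1 and in 9 of 37 of run 2. Ccl25b spread more widely, with quartiles of 1026 and 24320 CPM in run 1. After thinning to 2000 UMIs, the 15 genes with the highest ratio of variance to mean in run 1, among those in at least 10% of fibroblasts, included ccl25b at 61.1, col1a2 at 60.0, cfd at 35.0, soul5 at 32.3 and krt5 at 24.1. Ccl25b ranged from 0 to 186 UMIs per thinned cell with a median of 16. In run 2, 8 of these 15 genes were again among the highest 15. The list also held the contractile genes tagln and TPM1, the water channel aqp3a, thbs1 and postnb.

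One fibroblast of run 1, the deepest with 21155 UMIs, had a pattern of its own. It held 2332 UMIs of COL10A1, which is 99.6% of that gene's fibroblast UMIs in run 1, and 2529 of col1a2. It also held all 379 UMIs of paplnb and 6 of the 10 of sp7, a transcription factor of bone-forming cells. It had 26 UMIs of dcn, 0 of lum and 8 of krt94. It was chosen here after its values were seen, and no other cell type is given to it.

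Spearman correlations over thinned cells were computed as descriptions, with 110 fibroblasts in run 1, 35 in run 2 and 1504 genes. All cells of a run share a library and a depth, and dcn, lum and col1a2 belong to the rule. Dcn had its highest correlation with soul5, at 0.721 in run 1 and 0.694 in run 2, followed by lum at 0.580 and 0.482. Lum was nearest to cfd, at 0.622 and 0.566. Col1a2 was nearest to sparc, at 0.754 and 0.609, and then to col1a1b and col1a1a, at 0.664 and 0.631 in run 1 and 0.448 and 0.601 in run 2. Among the 5 highest correlates of each in run 1, dcn and col1a2 shared no gene. Cells were chosen on the sum of dcn, lum and col1a2, and how far the rule shapes this difference was not tested. For pdgfra the highest value in run 1, 0.436 with ntn2, was -0.0585 in run 2, and for prrx1b the highest was 0.339, with NBL1, and 0.172 in run 2.

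**Figure D4:**
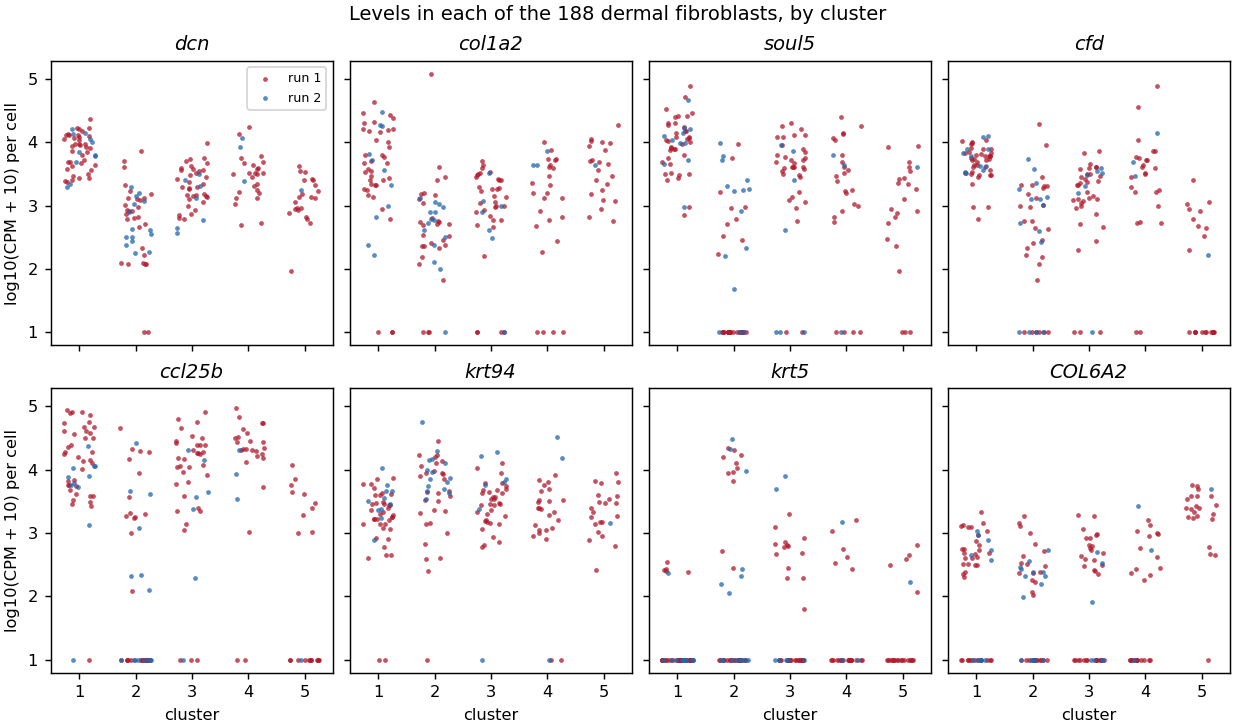
Each point is 1 of the 188 fibroblasts, with its cluster on the horizontal axis and log10 of CPM plus 10 on the vertical axis for 8 genes; points at 1 have no UMI. Dcn, soul5 and cfd are highest in cluster 1 or 4, krt94 is present in nearly every cell of all clusters, and high krt5 is limited to a few cells, most of them in cluster 2.

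Clustering of the 188 fibroblasts (Leiden algorithm, resolution 0.5) gave 5 clusters, which are called by number. Their leading genes define them and are not findings. Cluster 1, with 39 cells of run 1 and 11 of run 2, was led by postnb, olfml2a, arrdc3a, loxl3b and SRPX2. It had dcn at 8522 CPM, lum at 2180 CPM and soul5 at 14297 CPM, against ranges over the other clusters of 571 to 3398, 0 to 1744 and 935 to 5462 CPM. Cluster 4, with 25 and 3 cells and a median of 1999.5 UMIs, was led by CDH4, ZFHX4, zfhx3b, tmem204 and cygb1. Its cfd level, 9693 CPM, and its myoc level, 1372 CPM, rested on single cells with 50.7% and 61.7% of these UMIs. Without those cells they were 5101 and 671 CPM. In cluster 1 these genes were at 5904 and 744 CPM, and at 5723 and 680 CPM without its own highest cell for each gene. Trimmed alike, myoc was thus nearly equal in clusters 4 and 1. Cluster 3, with 35 and 7 cells, was led by nfkbiaa, an inhibitor of NF-kB, and by rrad, 1 of the features named FILIP1, tmco1 and il17a/f3. It had immediate early and heat shock genes at a summed 50705 CPM, against 24144 to 40034 CPM in the other clusters.

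Cluster 5, with 22 cells of run 1 and 1 of run 2, was led by CXCL8, lrrc17, egfl6, PTGIR and cyp1c2. It had no lum UMI, and cfd was at 272 CPM, but COL6A2 was at 2798 CPM, COL12A1 at 534 CPM and MFAP2 at 1237 CPM. In the other clusters these genes were at 202 to 475, 0 to 116 and 15.5 to 124 CPM. It also held cyp26b1 at 1436 CPM and hpdb at 1331 CPM. Cdh5, an endothelial cadherin, was at 304 CPM, from 325 CPM in run 1 and 0 in the 1 cell of run 2. The other 16 endothelial genes summed to 136 CPM in cluster 5, within the 33.6 to 258 CPM of the other clusters. The share of fibroblasts in cluster 5 was 14.6% in run 1 and 2.70% in run 2.

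Cluster 2, with 30 and 15 cells and the highest median depth, 6238 UMIs, was led by krt5, sec14l8, adgra2, elovl1b and actb1. It had krt5 at 7513 CPM, against 31.0 to 926 CPM in the other clusters. Its dcn level, 571 CPM, was the lowest of the 5. High krt5 was in few cells: 11 of 151 fibroblasts of run 1 and 5 of 37 of run 2 had at least 3 UMIs, of which 9 and 3 were in cluster 2. The deepest fibroblast of run 2, with 633 krt5 UMIs, 11 of dcn and 6 of col1a2, is among them. The cells of cluster 2 meet the rule and go partly against its label. Of the markers outside the rule, pdgfra was at 67.2 CPM, against 119 to 244 CPM in the other clusters. Prrx1b was at 447 CPM, against 228 to 539 CPM. It was in 77.8% of the cluster's cells without thinning, the highest share of the 5. Such shares rise with depth and cluster 2 was the deepest, so this share is not comparable between clusters. The COL10A1 cell described above lies in cluster 2 and held 93.5% of the cluster's col1a2 UMIs. The part of cluster 2 in the other results, with that cell included, was measured by leaving the cluster's cells out. Without them, krt94 was still at 2831 and 9856 CPM, but krt5 was at 91.1 and 1007 CPM and 1 of 6 keratins was at least 4-fold higher in both runs. The krt94 level of run 2 includes 1 cell of cluster 4 with 16922 UMIs and krt94 at 32207 CPM. That cell held 73.1% of the krt94 UMIs of cluster 4, which was at 3291 CPM without it. Without cluster 2, dcn was at 4527 and 4356 CPM. Of 10 collagens, 7 were higher, among them col1a2, a gene of the rule, and of 19 matrix glycoproteins 14 were. Over all genes measured without cluster 2 it was 207 of 4109.

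**Figure D5:**
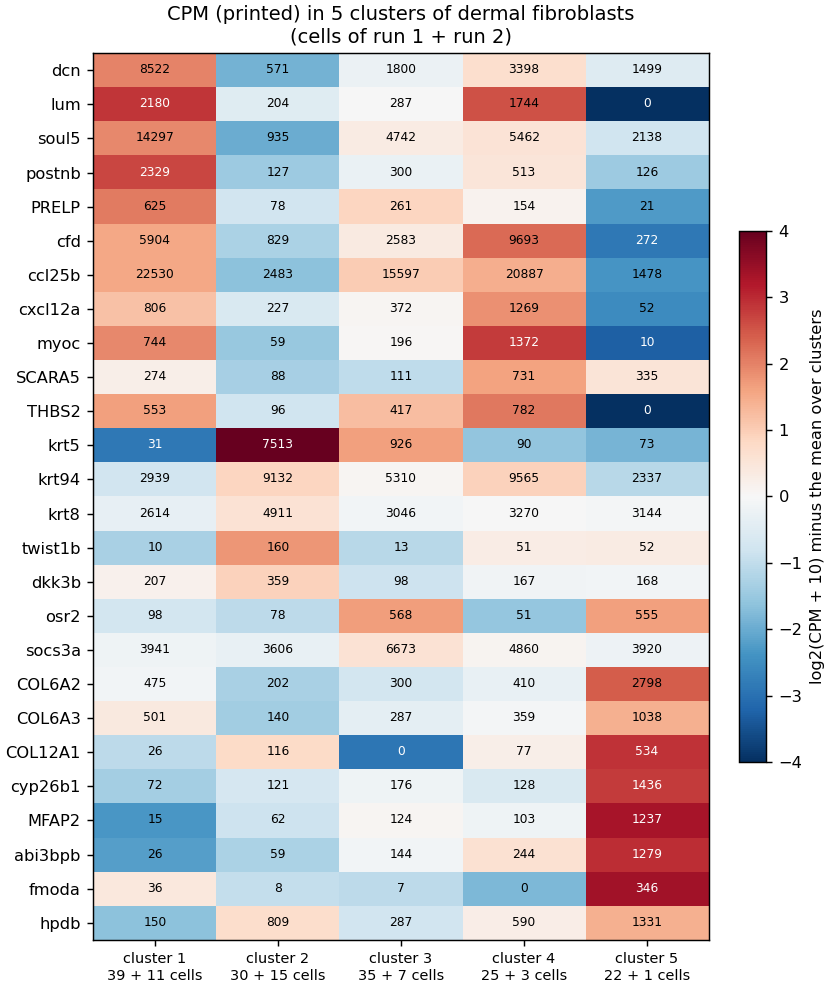
Colour shows log2 of CPM plus 10 relative to the mean over the 5 clusters, and the printed numbers show CPM summed over both runs. Dcn, lum, PRELP and soul5 are highest in cluster 1, krt5 in cluster 2 and COL6A2, MFAP2 and cyp26b1 in cluster 5, while krt8 differs little between clusters.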

How the data were processed

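Per the file headers and the submitters' processing notes, the authors deposited matrices of raw UMI counts made with Cell Ranger 7.1.0 from 10x Genomics 3′ libraries; the sources used here name no genome build or annotation. They hold 23601 features, 13522 with a symbol; names are those of the files, since 0 features matched the RefSeq table by Ensembl ID. Near-identical copies may share reads, and features with the same symbol were kept apart.

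Fibroblasts, gene lists and named genes were chosen with earlier results of these data known; keratin, tyrosine and SOUL lists were added after seeing values, and 1 gene of the tyrosine list is not reported here. UMIs were summed per class and run and scaled to CPM. Reference classes were cells outside the fibroblasts with at least 2 UMIs of epcam, scarb1 or CRABP1, or 1 of CD3D, in exactly 1 class. Named genes were the 25 with the largest and 15 with the smallest ratios, list members past 4-fold or at a list's ends, the 15 most variable, the 5 best correlates of each marker and the 5 leading genes per cluster; some are left out for brevity. Total depth, given in the report, sets the exact Poisson and Clopper-Pearson intervals, which cover counting error only. Doublets were not removed. Scrublet's own threshold marked 21 and 1 cells, under 0.5% of run 1 and run 2. As an alternative, cells scoring strictly above the cut for the top 4% of scores were left out. These were 169 of 4613 and 14 of 590 cells, among them 2 and 0 fibroblasts. Cells were clustered with scanpy 1.11.5 and leidenalg 0.10.2 (1000 variable genes, 15 components, 15 neighbours, no integration). The fold rule was tried on simulated data with known folds. Those counts were drawn independently for each cell, so the simulation did not cover genes with most of their UMIs in 1 cell. Python 3.11.15 was used.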

Additional observations from a re-analysis of the deposited data

How the results depend on the processing

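The 14 alternatives to the comparison with other cells gave 1442 values for 103 named genes. Of these, 999 moved by less than the spread between runs, 443 by more and 0 changed sign. Part of this was fixed in advance and is no sign of stability. A single run always differs from the mean of the 2 runs by less than their spread. The limit on the share of cells leaves each ratio as it was, and added CPM cannot turn a sign. The 158 genes higher and 210 lower became 283 and 355 with 1 CPM added, and 49 and 58 with 50 CPM. Each run alone gave 236 to 309 higher and 362 to 477 lower. Against the mean of the 4 reference classes 91 were higher, 86 of them among the 158. The median log2 ratio of the matrix lists, 2.06 with the rule's genes left out, was 2.67 with 1 CPM added, 1.06 with 50 CPM, 1.42 with genes in at least 2% of cells, 2.65 in cells thinned to 2000 UMIs, and 1.61 to 2.39 in each run alone. Leiden resolution 0.3 gave 3 clusters and resolution 1 gave 7. The added CPM sets how low a gene may be and still pass. The cause of the other shifts was not tested.

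Leaving out the deepest fibroblast of each run, an alternative chosen after seeing the data, gave 182 higher and 212 lower, and leaving out the krt5-led cluster, likewise chosen, gave 207 and 219, of which 128 and 189 were among the reported genes. Other settings (a sum of 8 UMIs, excluded genes at 0, mitochondrial share, doublet scores, per-cell means) stayed within 1.5 times of the reported counts. Each ratio was taken within a run, so both classes of cells are already matched by run. No paired analysis was possible because there are no groups of samples to pair. Leaving out the cell that held most of a gene's UMIs in a run was also chosen after seeing the data. Of 74 genes followed that were 4-fold higher in both runs, 17 fell under 4-fold in a run without 1 cell. The log2 ratio was then 1.02 for nog2, 1.23 for rgs5a and 1.53 for adamts1, and 1.70 to 1.995 for the other 14, which were igfbp5b, bmp4, vegfab, cdh2, loxl3b, creb3l1, COL5A1, MFAP2, mmp16, socs3a, cyp26b1, gli2b, krt8 and krt18a.1. With 37 fibroblasts in run 2, genes near 3 UMIs there are not resolved at this depth.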

Other observations

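Some features with high levels in the fibroblasts carry no gene name. The feature ENSORLG00000012982 was at 1872 CPM in run 1 and 2233 CPM in run 2, against 22.7 and 19.5 CPM in the other cells. ENSORLG00000025609 was at 690 and 729 CPM, against 12.9 and 11.04 CPM. Both were more than 50-fold higher in CPM in both runs.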
